A study of Mus musculus with 16 samples.

Results

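Messenger RNA levels of 10 mouse genes for small heat shock proteins, the cytosolic HSP70 and HSP90 chaperones and their helpers are described in the plantaris, a hindlimb muscle that helps to extend the foot. The genes are Hspb1, Hspb7, Hspb8, Cryab, Bag3, Dnajb1, Hspa1a, Hspa1b, Hspa8 and Hsp90aa1. They were taken from the deposited table of gene counts by symbol, all 10 were found among its 17230 genes, and all 10 passed the filter on low counts. The study crossed genotype with surgery in mice 9 to 12 weeks old and measured total RNA of the plantaris by sequencing. The 4 groups were TRIM28 mKO mice with myotenectomy (KO MTE, n = 4), Wild Type mice with myotenectomy (WT MTE, n = 4), TRIM28 mKO mice with sham surgery (KO Sham, n = 3) and Wild Type mice with sham surgery (WT Sham, n = 4). Myotenectomy is used, per the labels, to impose a mechanical overload on the plantaris. TRIM28 is a chromatin corepressor, and the promoter or Cre line behind the knockout, the cells it acts in, the sex and strain of the mice and the days between surgery and harvest were not stated in the labels. The labels list 4 KO Sham samples and the table held 3 KO Sham columns, which are called columns 1 to 3 because their numbers may have been reassigned. Nothing in the labels says that each library is a different mouse, so the p-values measure only how far these samples spread, which may be technical.

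Chaperones keep other proteins folded and out of aggregates. Small heat shock proteins bind unfolding clients without using ATP and hold them until an ATP-driven machine takes over. HSP70 proteins fold or release clients in cycles of ATP hydrolysis that J-domain proteins start and nucleotide exchange factors of the BAG family end, and HSP90 takes up some of the clients that HSP70 has bound. In striated muscle, small heat shock proteins lie at the Z-disc, on desmin filaments and on filamin and titin. BAG3 links HSPB8 to HSP70 and, with the ubiquitin ligase encoded by Stub1, carries damaged filamin to autophagy. Transcription of many of these genes is driven by heat shock factors, which bind inverted repeats of a short unit with GAA, or its complement TTC, at its centre.

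Libraries held 21.1 to 69.2 M counts (M, mega). Levels are given as CPM, the share of a library's counts on the usual scale, after TMM scaling, which corrects library size for genes that take up many reads. Trim28, the targeted gene, stood at 18.0 to 30.3 CPM in KO MTE and 35.3 to 60.9 CPM in WT MTE, and at 5.39 to 12.7 CPM in KO Sham and 27.8 to 49.0 CPM in WT Sham. The groups did not overlap at either surgery, and the difference passed the test in Sham (adjusted p = 0.0101) but not in MTE (adjusted p = 0.0823, edgeR). All 8 muscle fibre markers were present in every library. A pair of Sham libraries stood apart from the rest of their groups. WT Sham 1 had a summed level of 10 macrophage markers of 3357 CPM, against 289 to 377 CPM in the other WT Sham libraries, and a share of mitochondrial counts of 6.95% against 13.3% to 14.4%. KO Sham column 3 had 20.5% mitochondrial counts against 11.3% and 12.2%, and a fibroblast marker sum of 1336 CPM against 3597 and 3698 CPM. Where leaving them out changed a result on the 10 genes, it is also given without them.

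Promoter sequences of 300 bases, 250 before and 50 after the annotated start, were found in the RefSeq promoter table (build GRCm38.p6) for 7 of the 10 genes, and not for Cryab, Hspa8 or Hsp90aa1. They were searched for the smallest paired heat shock element, GAANNTTC or TTCNNGAA, each of which is its own reverse complement, so that 1 search covers both strands. Of the 7 genes, 5 held such a pair (Hspb1, Hspb8, Bag3, Hspa1a and Hspa1b) and Hspb7 and Dnajb1 did not. Either form occurred in 15.1% of all 32851 promoters listed there. The 3-repeat forms GAANNTTCNNGAA and TTCNNGAANNTTC, which contain the pairs, were in 0.603% of all promoters and in 0 of the 7 genes. The Bag3 pair ends at the last base of its window, so a further repeat after it could not have been found. A match is a run of letters in this window and was not tested as a binding site. The promoters below are those of Hspb1 and Hspb7, the genes with the largest fitted changes under overload of which only Hspb1 holds the pair, and of Hspa1b and Bag3, which both hold it and of which only Hspa1b was called under overload. They are written 5′ to 3′ on the gene's strand with the matched letters in capitals. Positions are chr5:135887669-135887968 (+) for Hspb1, chr4:141420529-141420828 (+) for Hspb7, chr17:34959189-34959488 (-) for Hspa1b and chr7:128523333-128523632 (+) for Bag3.
Hspb1: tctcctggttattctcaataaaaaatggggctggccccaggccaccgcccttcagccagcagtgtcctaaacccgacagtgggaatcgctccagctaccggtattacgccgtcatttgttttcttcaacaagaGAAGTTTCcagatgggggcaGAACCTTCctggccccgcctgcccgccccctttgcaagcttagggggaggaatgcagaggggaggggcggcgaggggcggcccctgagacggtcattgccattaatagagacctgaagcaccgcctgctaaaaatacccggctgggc
Hspb7: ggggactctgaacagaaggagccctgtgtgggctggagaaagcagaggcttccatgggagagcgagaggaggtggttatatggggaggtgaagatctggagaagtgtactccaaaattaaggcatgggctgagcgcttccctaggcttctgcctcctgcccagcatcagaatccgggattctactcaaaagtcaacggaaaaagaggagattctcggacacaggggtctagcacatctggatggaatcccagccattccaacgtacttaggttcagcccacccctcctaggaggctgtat
Hspa1b: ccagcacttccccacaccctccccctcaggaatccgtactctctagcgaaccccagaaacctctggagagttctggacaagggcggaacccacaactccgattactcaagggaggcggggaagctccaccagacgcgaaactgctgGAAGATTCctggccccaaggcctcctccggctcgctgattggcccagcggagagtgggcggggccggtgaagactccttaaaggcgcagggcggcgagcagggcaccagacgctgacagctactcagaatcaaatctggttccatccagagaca
Bag3: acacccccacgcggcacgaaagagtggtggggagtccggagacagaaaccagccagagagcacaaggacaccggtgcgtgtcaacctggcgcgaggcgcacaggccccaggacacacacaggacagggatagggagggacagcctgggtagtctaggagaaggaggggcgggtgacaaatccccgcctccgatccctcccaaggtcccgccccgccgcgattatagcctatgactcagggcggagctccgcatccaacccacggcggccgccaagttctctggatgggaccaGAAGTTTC

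Counted from the annotated start, the first base of the pair lay at -117 and -97 in Hspb1, at -104 in Hspa1b and at 43 in Bag3, inside the transcript. The Hspa1a promoter differed from that of Hspa1b in 4 of 300 bases, none of them in the pair, which sat at -104 in both. The Hspb8 pair began at 3.

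Levels of different genes are compared here per kilobase of annotated exon. The length is the union of all annotated exons of a gene, which may exceed its main transcript, so orders between genes are approximate. For Hspa8 the union is 4301 bases in 3 blocks and takes in the snoRNA genes Snord14c, Snord14d and Snord14e. Its level per kb may therefore be understated. On this scale Cryab (alpha B-crystallin, a small heat shock protein of the Z-disc and desmin) stood highest in MTE muscle. Its mean was 937 ± 276 CPM per kb in KO MTE and 809 ± 320 in WT MTE (SD, n = 4 each). In KO Sham muscle Hspa8 and Cryab had 376 ± 34.7 and 369 ± 171 CPM per kb (SD, n = 3), and in WT Sham muscle 306 ± 25.3 and 323 ± 118 (SD, n = 4), so that their order in Sham lay within the spread. By group mean, Hspb7, Hspb1 and Hspb8 also stood above Hsp90aa1 and Bag3 in every group, followed by Dnajb1, with the heat-inducible HSP70 genes last. Hspa1a had 2.60 ± 0.717 CPM per kb in KO MTE, 1.41 ± 0.529 in WT MTE, 1.40 ± 0.467 in KO Sham and 0.940 ± 0.388 in WT Sham. In KO MTE Hspb7 and Hspb1 came next after Cryab, at 507 ± 112 and 404 ± 161 CPM per kb, above Hspa8 at 393 ± 97.9, whereas in WT Sham they were at 78.8 ± 33.5 and 57.7 ± 39.0, below Hspb8 at 112 ± 25.8. Many neighbours in these orders overlapped. The ranges of Cryab, Hspb7, Hspb1, Hspa8 and Hspb8 did so, each with the next, in KO MTE, and those of Hspa8, Hspb7, Hspb1 and Hspb8 in WT MTE. In KO MTE Hspa1a (1.60 to 3.14 CPM per kb) also overlapped Dnajb1 (2.69 to 4.26). In KO Sham Hspb7 overlapped both Hspb8 and Hspb1. There Hspb1, at 20.5 to 65.7 CPM per kb, overlapped both Hsp90aa1 (20.96 to 34.1) and Bag3 (19.6 to 25.4). Hsp90aa1 and Bag3 overlapped each other in KO Sham and in WT Sham (19.4 to 24.9 and 13.7 to 20.6). In WT Sham Hspb8, Hspb7 and Hspb1 overlapped, each with the next.

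**Figure D1:**
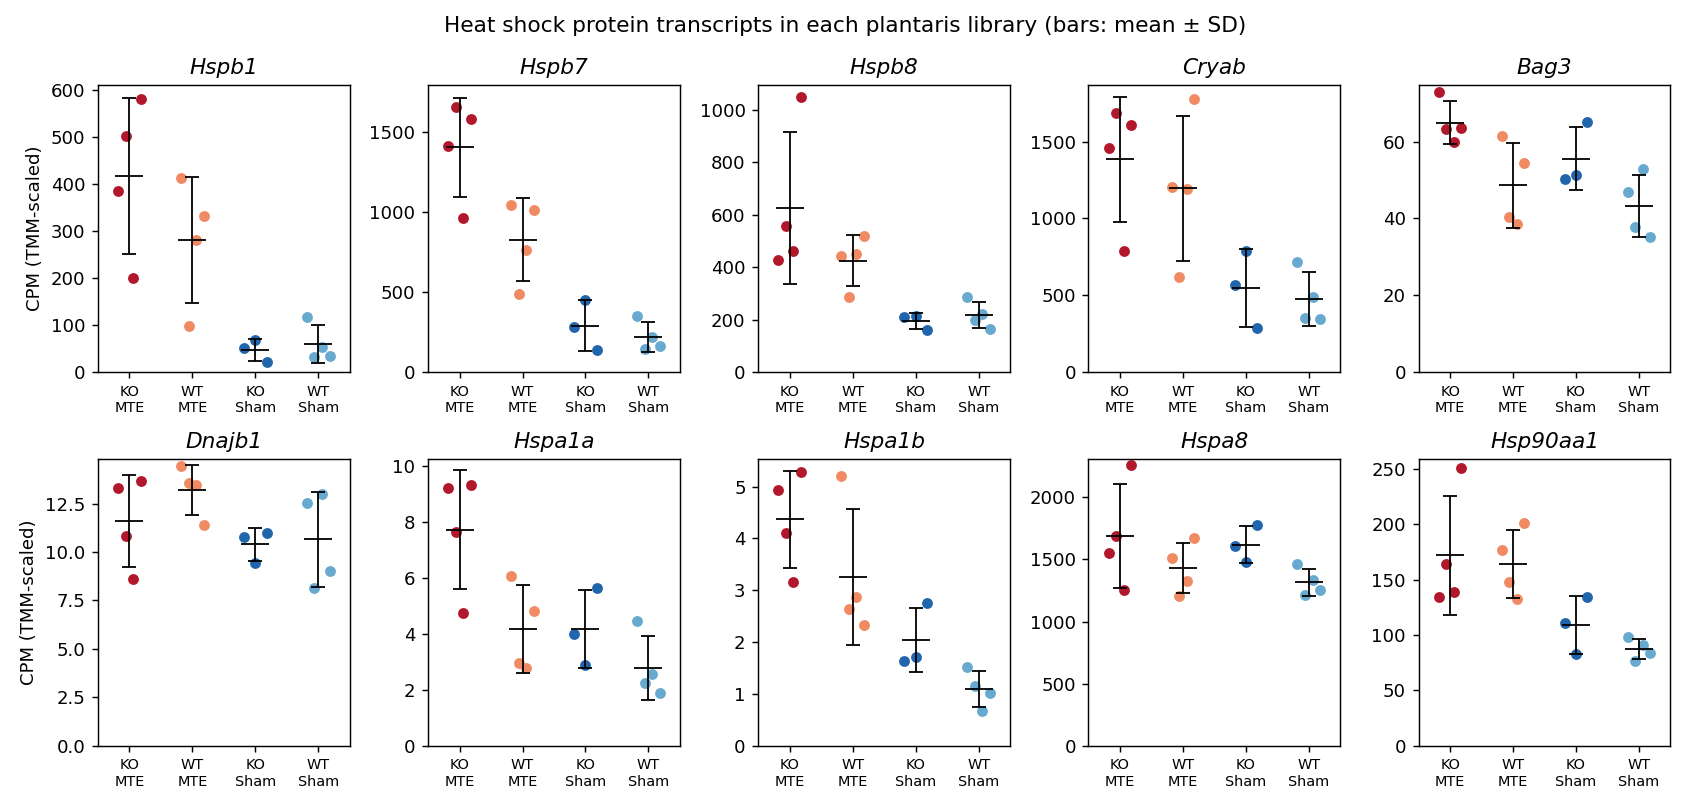
Level of each of the 10 genes in every library. The y axes give TMM-scaled CPM from 0, each dot is a library, and the bars give the group mean ± SD (n = 4, and n = 3 for KO Sham). Hspb1 and Hspb7 in both MTE groups stand mostly above both Sham groups, while Hspa8, Dnajb1 and Bag3 overlap between MTE and Sham within each genotype.

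Overload went with higher messenger levels of the small heat shock proteins in both genotypes. In edgeR's quasi-likelihood test, with Benjamini-Hochberg adjustment over 17212 genes and a threshold of 0.05, 6 of the 10 genes rose in KO MTE against KO Sham and 6 of 10 rose in WT MTE against WT Sham, and 0 fell. The same 6 genes passed in both: Hspb1, Hspb7, Hspb8, Cryab, Hspa1b and Hsp90aa1. Among all genes tested, 13.2% were called higher in KO MTE against KO Sham and 14.1% in WT MTE against WT Sham. The median log2 fold change of the 10 genes was 1.01 in KO and 0.94 in WT, beside 0.04 over all genes in each. Adjusted p-values in the text come from this fit where no other tool is named.

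Hspb1 (chr5:135887919-135889563, + strand, build GRCm38 as for the other genes) encodes HSP27, which caps and protects actin filaments, and showed the largest fitted change. It had 385, 502, 199 and 582 CPM in the 4 KO MTE libraries and 412, 97.4, 281 and 332 CPM in the 4 WT MTE libraries. The Sham libraries had 50.5, 67.7 and 21.1 CPM in KO and 118, 32.7, 53.2 and 33.8 CPM in WT. All KO MTE libraries lay above all KO Sham libraries, whereas WT MTE 2 lay below WT Sham 1, the library with the high macrophage markers. Hspb1 was 8.95-fold higher in KO MTE than in KO Sham (log2 3.16, SE 0.61, adjusted p = 0.00311) and 4.72-fold higher in WT MTE than in WT Sham (log2 2.24, SE 0.53, adjusted p = 0.00654). Without both WT Sham 1 and KO Sham column 3 the log2 changes were 2.80 in KO (adjusted p = 0.00444) and 2.77 in WT (adjusted p = 0.00059). The order of the group means was KO MTE, WT MTE, WT Sham and KO Sham, and the test did not tell the MTE groups apart, nor the Sham groups. The deposited counts of Hspb1 were whole in only 3 of 15 libraries, as happens where some reads match more than 1 gene.

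Hspb7 (chr4:141420779-141425311, + strand), a small heat shock protein of heart and skeletal muscle that binds filamin C, had 1413, 1656, 962 and 1583 CPM in KO MTE and 1043, 485, 764 and 1012 CPM in WT MTE. In Sham it had 281, 453 and 135 CPM in KO and 349, 143, 220 and 162 CPM in WT. Every MTE library of a genotype lay above every Sham library of that genotype. The change was 4.84-fold in KO (log2 2.28, SE 0.42, adjusted p = 0.00245) and 3.78-fold in WT (log2 1.92, SE 0.37, adjusted p = 0.00218). An exact two-sided permutation test gave p = 0.0286 in both, which is the lowest value possible with these group sizes. Under each alternative and with each library left out in turn Hspb7 stayed called in both genotypes, with log2 changes of 1.92 to 2.75 in KO and 1.76 to 2.19 in WT. Hspb1 likewise stayed called throughout.

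Hspb8 (chr5:116408491-116422864, - strand), the partner of BAG3, had 428, 558, 463 and 1051 CPM in KO MTE, 442, 287, 451 and 519 CPM in WT MTE, 211, 214 and 159 CPM in KO Sham, and 285, 197, 223 and 166 CPM in WT Sham. MTE and Sham did not overlap in either genotype, though in WT the lowest MTE library was just above the highest Sham library, and KO MTE 4 was the highest of all. The change was 3.21-fold in KO (log2 1.68, SE 0.31, adjusted p = 0.00242) and 1.95-fold in WT (log2 0.97, SE 0.28, adjusted p = 0.0199). The WT call was lost without WT Sham 2 (adjusted p = 0.0585), WT Sham 4 (0.0642) or WT MTE 4 (0.0520).

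Cryab (chr9:50751325-50756636, + strand) had 1459, 1687, 790.4 and 1607 CPM in KO MTE and 1207, 617, 1190.0 and 1775 CPM in WT MTE. Its Sham values were 567, 787 and 284 CPM in KO and 720, 353, 490 and 346 CPM in WT. The KO groups came within a few CPM of each other, KO MTE 3 lying just above KO Sham column 2, and in WT the lowest MTE library lay below WT Sham 1. Cryab was 2.54-fold higher in KO MTE than in KO Sham (log2 1.34, SE 0.41, adjusted p = 0.0286) and 2.51-fold higher in WT MTE than in WT Sham (log2 1.33, SE 0.37, adjusted p = 0.0178). These calls rested on single libraries more than those of Hspb1 and Hspb7. The KO call was lost without KO Sham column 1 (adjusted p = 0.0686), KO Sham column 3 (0.123), KO MTE 1 (0.0521), KO MTE 2 (0.0683) or KO MTE 4 (0.0638), and also without both WT Sham 1 and KO Sham column 3 (0.0703). The WT call was lost without WT Sham 2 (adjusted p = 0.0596), WT Sham 4 (0.0571) or WT MTE 4 (0.0551). Cryab exons share 252 bases with those of Hspb2, which lies on the other strand, and how the counting treated strand is unstated, so reads of the pair may be mixed.

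Taken by groups that do not overlap, Hspb1, Hspb7, Hspb8, Cryab, Hspa1b and Hsp90aa1 lay higher in every KO MTE library than in every KO Sham library, 6 of 10 genes beside 19.9% of all genes. In WT the same was true of Hspb7, Hspb8, Hspa1b and Hsp90aa1, 4 of 10 beside 13.7% of all genes. The exact permutation test followed this split in WT. In KO it did not for Cryab and Hsp90aa1, whose groups did not overlap but whose p was above the lowest possible. For the called genes other than Hspb7 the permutation p was 0.0286 for Hspb8 and Hspa1b in both genotypes, for Hspb1 in KO and for Hsp90aa1 in WT. It was 0.0571 for Hspb1 in WT, for Cryab in both genotypes and for Hsp90aa1 in KO.

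Bag3 and Dnajb1, the helpers of HSP70 in this set, were not called under overload. Bag3 (chr7:128523616-128546981, + strand) had 72.9, 63.2, 59.9 and 63.6 CPM in KO MTE, 61.4, 40.4, 38.5 and 54.5 CPM in WT MTE, 50.3, 51.4 and 65.1 CPM in KO Sham, and 47.0, 37.8, 52.8 and 35.2 CPM in WT Sham. The groups overlapped within each genotype. The fitted log2 difference was 0.22 in KO (95% interval -0.17 to 0.62, adjusted p = 0.371) and 0.17 in WT (95% interval -0.19 to 0.53, adjusted p = 0.499). The intervals of Bag3 lie below the fitted change of Hspb8 in both genotypes. In WT, however, the interval of Hspb8 (0.37 to 1.56) overlaps that of Bag3, and the changes of these genes were not tested against each other. The ratio of Hspb8 to Bag3 CPM, which is not scaled by length and is read only across libraries, was 5.88 to 16.5 in KO MTE, 7.09 to 11.7 in WT MTE, 2.44 to 4.20 in KO Sham and 4.22 to 6.05 in WT Sham. It did not overlap between MTE and Sham in either genotype.

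Dnajb1 (chr8:83608193-83612653, + strand) encodes HSP40, the J-domain protein that starts the ATP cycle of HSP70. Its level was 13.3, 10.8, 8.61 and 13.6 CPM in KO MTE, 14.5, 13.5, 13.4 and 11.4 CPM in WT MTE, 10.8, 9.44 and 10.97 CPM in KO Sham, and 12.5, 8.12, 12.998 and 9.01 CPM in WT Sham. MTE and Sham overlapped within each genotype. The log2 differences were 0.16 in KO (95% interval -0.26 to 0.58) and 0.31 in WT (95% interval -0.08 to 0.70), with adjusted p = 0.562 and 0.231.

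Hspa1a (chr17:34969190-34972156, - strand) and Hspa1b (chr17:34956436-34959238, - strand) are neighbouring genes of 1 exon and encode the heat-inducible HSP70. Their annotated transcripts are alike enough to share reads: 47.1% of the 100-base windows of Hspa1a and 49.9% of those of Hspa1b occur in the other, and the longest identical run is 638 bases. The deposited counts of both were fractions in every library, so the split between them is an estimate and each value is uncertain. Hspa1a exons also share 564 bases with those of Gm20481, which lies on the other strand and is not among the counted genes. As for Cryab, the strand setting is unstated, so reads of Gm20481 may be included. Hspa1b had 4.93, 4.11, 3.17 and 5.27 CPM in KO MTE, 5.20, 2.63, 2.87 and 2.32 CPM in WT MTE, 1.64, 1.72 and 2.76 CPM in KO Sham, and 1.52, 1.16, 0.671 and 1.03 CPM in WT Sham, resting on 16.3 to 333 estimated counts. The MTE libraries lay above the Sham libraries in each genotype. After Hspb1 and Hspb7, Hspa1b had the largest fold in WT, 2.95 (log2 1.56, SE 0.31, adjusted p = 0.00262), and in KO it was 2.17-fold (log2 1.12, SE 0.34, adjusted p = 0.0266). The KO call was lost without KO Sham column 1 (adjusted p = 0.0945), KO Sham column 2 (0.0672), KO MTE 1 (0.0562) or KO MTE 4 (0.0653).

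Hspa1a had 9.21, 7.63, 4.75 and 9.31 CPM in KO MTE and 6.08, 2.97, 2.80 and 4.83 CPM in WT MTE. In Sham it had 3.98, 2.88 and 5.64 CPM in KO and 4.47, 2.26, 2.56 and 1.88 CPM in WT. KO MTE 3 lay below KO Sham column 3, and a pair of WT MTE libraries lay within the WT Sham range. Hspa1a was not called in KO (log2 0.90, SE 0.37, adjusted p = 0.0827) or in WT (log2 0.57, SE 0.34, adjusted p = 0.237). It passed in both genotypes when both WT Sham 1 and KO Sham column 3 were left out (log2 1.16, adjusted p = 0.0268 in KO and log2 0.86, adjusted p = 0.0363 in WT), and in KO when only WT Sham 1 was left out (adjusted p = 0.0394). With the counts of the pair summed, a choice made after seeing the data, heat-inducible HSP70 was 1.96-fold higher in KO MTE than in KO Sham (log2 0.97, SE 0.33, adjusted p = 0.0435) and 1.90-fold higher in WT MTE than in WT Sham (log2 0.93, SE 0.30, adjusted p = 0.0372).

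Hspa8 (chr9:40800984-40810087, + strand), the constitutive HSP70 (HSC70), stood at 1554, 1691, 1252 and 2258 CPM in KO MTE, 1511, 1208, 1329 and 1672 CPM in WT MTE, 1604, 1475 and 1773 CPM in KO Sham, and 1460.2, 1215, 1332 and 1250.4 CPM in WT Sham. MTE and Sham overlapped in both genotypes. The log2 differences were 0.06 in KO (95% interval -0.35 to 0.47, adjusted p = 0.826) and 0.12 in WT (95% interval -0.26 to 0.50, adjusted p = 0.665). Its deposited counts were whole in 0 of 15 libraries, so its level may include reads that also match other genes. Its exons also overlap the snoRNA genes Snord14c, Snord14d and Snord14e, which are not among the counted genes.

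Hsp90aa1 (chr12:110690605-110702728, - strand), the stress-inducible cytosolic HSP90, had 134, 164, 139 and 250.4 CPM in KO MTE, 176, 147, 133 and 201 CPM in WT MTE, 111, 82.4 and 134 CPM in KO Sham, and 97.9, 76.2, 90.8 and 83.8 CPM in WT Sham. In WT every MTE library lay clear of the Sham libraries, whereas in KO the lowest MTE library and the highest Sham library were almost equal. Hsp90aa1 was 1.57-fold higher in KO MTE than in KO Sham (log2 0.65, SE 0.23, adjusted p = 0.0477) and 1.89-fold higher in WT MTE than in WT Sham (log2 0.91, SE 0.21, adjusted p = 0.00585). As for Hspa8, its deposited counts were whole in 0 of 15 libraries. The WT call held under every alternative run. The KO call was at the threshold and was lost with RLE size factors (adjusted p = 0.0628), with only the KO groups in the fit (0.0916), and with 10 of the 15 libraries left out in turn, 4 of them KO libraries: KO Sham column 1 (0.0998), KO Sham column 2 (0.140), KO MTE 2 (0.0780) and KO MTE 4 (0.142). The other 6 were WT Sham 2 (0.0528), WT Sham 3 (0.0592), WT Sham 4 (0.0597), WT MTE 1 (0.0580), WT MTE 2 (0.0577) and WT MTE 3 (0.0525).

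**Figure D2:**
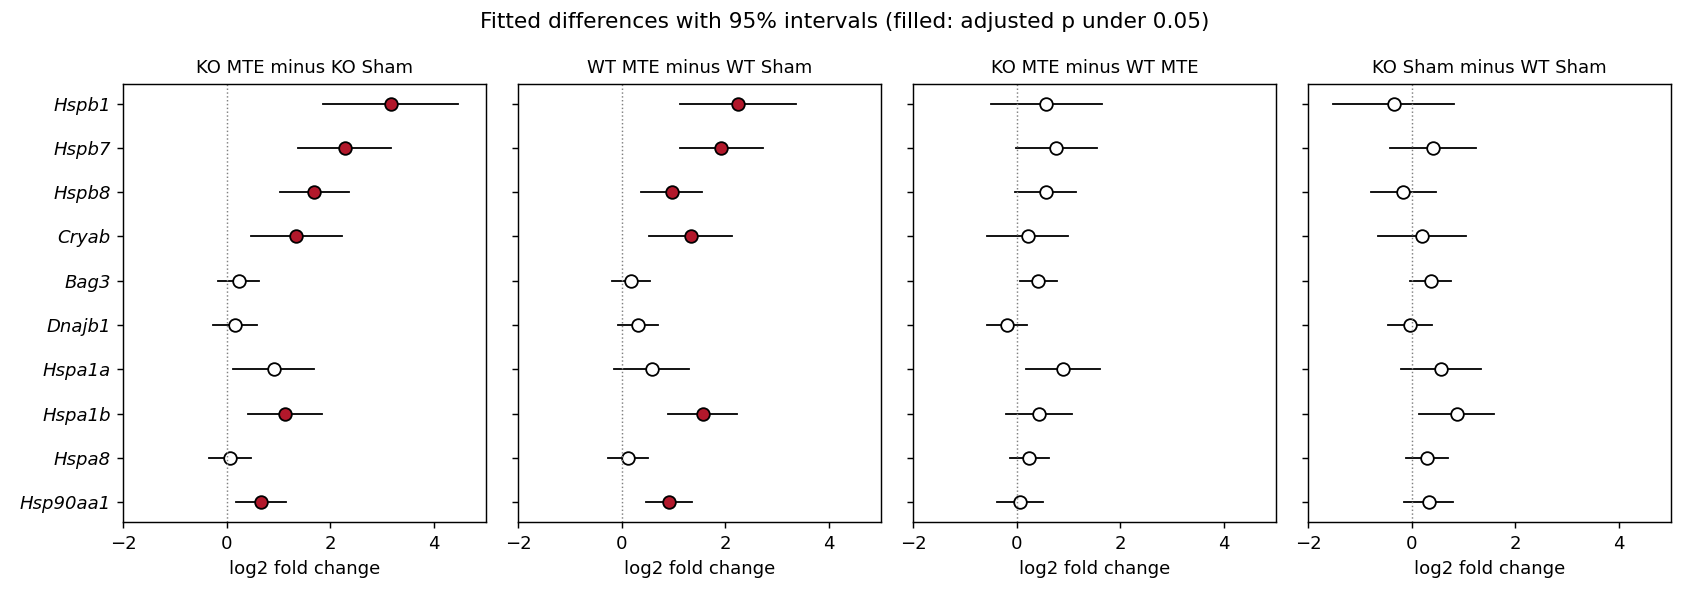
Fitted log2 fold changes of the 10 genes with 95% intervals in 4 comparisons, in the direction that each panel title gives. Filled circles passed an adjusted p under 0.05. The 6 filled genes under overload are the same in both genotypes, and no gene is filled in either KO against WT panel.

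Markers of other cell types moved with overload too. Of 8 fibroblast markers, 5 rose in KO MTE and 7 rose in WT MTE, and their summed level was 9321 to 14437 CPM in KO MTE and 7440 to 19369 CPM in WT MTE, against 1336 to 3698 CPM in KO Sham and 2341 to 3946 CPM in WT Sham. Of 10 macrophage markers 7 rose in KO and 1 in WT, counts that rested on the Sham libraries that stood apart. Without WT Sham 1, 10 of 10 rose in each genotype, without KO Sham column 3 the count was 1 in each, and without both it was 10 in each. The macrophage sums were 939 to 1053 CPM in KO MTE, 1302 to 1678 CPM in WT MTE, 144 to 324 CPM in KO Sham and 289 to 3357 CPM in WT Sham. Of 8 muscle fibre markers, Tnnt3 and Atp2a1 fell and Des rose in KO, and Tnnt3, Atp2a1 and Ryr1 fell in WT. Their sum was 30214 to 46956 CPM in KO MTE, 28328 to 41656 CPM in WT MTE, 30536 to 50225 CPM in KO Sham and 39785 to 55818 CPM in WT Sham. Of 8 smooth muscle and pericyte markers 4 rose and 1 fell in KO, and 3 rose and 1 fell in WT, with Acta2, Tagln and Pdgfrb higher in both. Their sum was 539 to 774 CPM in KO MTE, 601 to 1079.9 CPM in WT MTE, 764 to 1010.0 CPM in KO Sham and 650.3 to 1045 CPM in WT Sham. Of 8 endothelial markers 1 fell in KO, and 1 rose and 1 fell in WT. Of 8 slow fibre markers 4 rose in KO and 2 in WT, with sums of 1276 to 2145 CPM in KO MTE, 717 to 946 CPM in WT MTE, 375 to 991 CPM in KO Sham and 474 to 955 CPM in WT Sham. The markers did not all move up. Mean Myh7 was 99.2 CPM in KO MTE against 191 in KO Sham, and 95.1 in WT MTE against 165 in WT Sham. Mean Myl3 was 13.1 against 24.8 CPM in KO and 11.4 against 20.0 CPM in WT. Neither gene was called. In KO MTE the troponins Tnnc1, Tnnt1 and Tnni1 averaged 464, 359 and 145 CPM of a mean sum of 1678 CPM. Between genotypes, 2 of the 8 slow fibre markers were called higher in KO MTE than in WT MTE. No marker of these lists was at 0 in any library. The part of these shifts in the heat shock results was not tested, and in whole muscle more cells of a type and more RNA per cell cannot be told apart.

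No difference between the genotypes passed the test for any of the 10 genes. In MTE muscle 0 of 10 were called in KO against WT, beside 1.47% of all genes, and in Sham muscle 0 of 10, beside 0.511%. DESeq2 and limma voom also called 0 of 10 in both. At an unadjusted p under 0.05 stood 2 of the 10 in MTE (Bag3 and Hspa1a), beside 2185 of all 17212 genes, and 1 of the 10 in Sham (Hspa1b), beside 1861 of 17212. These counts do not set the 10 genes apart from the rest. In MTE the median log2 difference of the 10 genes was 0.42, beside -0.06 over all genes, and in Sham it was 0.31, beside -0.01. No p is given for these medians.

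In MTE the fitted KO over WT ratio was 1.85-fold for Hspa1a (log2 0.89, 95% interval 0.18 to 1.60, adjusted p = 0.254), 1.70-fold for Hspb7 (log2 0.77, -0.01 to 1.54, adjusted p = 0.403) and 1.33-fold for Bag3 (log2 0.41, 0.05 to 0.78, adjusted p = 0.307). Hspb1 and Hspb8 followed at 1.49-fold (log2 0.57, -0.50 to 1.64) and 1.47-fold (log2 0.56, -0.03 to 1.15). The KO and WT ranges overlapped for all 10 genes, where 5.58% of all genes lay higher in every KO MTE library than in every WT MTE library. For Bag3 the overlap was 1 library deep: WT MTE 1, at 61.4 CPM, lay above KO MTE 3, at 59.9 CPM. Hsp90aa1 was the gene with the smallest difference (log2 0.06, 95% interval -0.38 to 0.51, adjusted p = 0.934). The summed Hspa1a and Hspa1b counts gave a log2 difference of 0.71 (SE 0.30, adjusted p = 0.330), from 14.1, 11.7, 7.92 and 14.6 CPM in KO MTE and 11.3, 5.59, 5.65 and 7.16 CPM in WT MTE.

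In Sham muscle Hspa1b and Hspa8 lay higher in every KO library than in every WT library, 2 of 10 genes beside 4.54% of all genes. Hspa1b was 1.82-fold higher on the fitted scale (log2 0.86, 95% interval 0.14 to 1.59, adjusted p = 0.372), and Hspa8 1.23-fold (log2 0.30, 95% interval -0.11 to 0.71, adjusted p = 0.634). Neither passed the test. The split of reads between Hspa1a and Hspa1b is an estimate, so the Hspa1b separation may depend on it. Summed, the pair had 5.62, 4.59 and 8.39 CPM in KO Sham and 5.998, 3.42, 3.25 and 2.91 CPM in WT Sham. The summed groups overlapped, WT Sham 1 lying above KO Sham column 1 and KO Sham column 2. The summed counts gave a log2 difference of 0.66 (SE 0.33, adjusted p = 0.493). The signs of Hspb1, Hspb7 and Cryab turned with 1 library left out. The log2 difference of Hspb1 was -0.35 over all libraries, 0.21 without WT Sham 1 and 0.56 without both WT Sham 1 and KO Sham column 3. That of Hspb7 was 0.41, with -0.07 without KO Sham column 2 and 1.06 without both. For Cryab it was 0.20 (95% interval -0.65 to 1.04), with -0.16 without KO Sham column 2 and 0.76 without both. Hspb8 lay between -0.27 and -0.03 with single libraries left out and was at 0.11 without both.

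The overload response itself was compared between genotypes by the interaction, the log2 change in KO minus that in WT. It was 0.92 for Hspb1 (95% interval -0.66 to 2.51), 0.72 for Hspb8 (95% interval -0.15 to 1.59), 0.36 for Hspb7 (SE 0.53), 0.02 for Cryab (SE 0.54) and -0.44 for Hspa1b (SE 0.45), each with an adjusted p of 0.989 or more. These sizes rested on the Sham libraries that stood apart. Without both WT Sham 1 and KO Sham column 3 the interaction was 0.03 for Hspb1 (95% interval -1.39 to 1.46), 0.47 for Hspb8 (-0.45 to 1.38), -0.28 for Hspb7 (-1.18 to 0.62), -0.53 for Cryab (-1.58 to 0.51) and -0.35 for Hspa1b (-1.30 to 0.60). With single libraries left out it ran from 0.38 to 1.30 for Hspb1, from 0.35 to 0.86 for Hspb8, from 0.02 to 0.83 for Hspb7 and from -0.29 to 0.38 for Cryab. By edgeR 0 of the 10 genes and 0 of all genes were called, with 0 of the 10 and 605 of all genes at an unadjusted p under 0.05. DESeq2 and limma voom called 0 of the 10. A difference in response between the genotypes was thus not shown for any of the 10, and the intervals of Hspb1 and Hspb8 leave room for differences of over 1 log2 unit.

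Few other chaperone genes were called under overload, in shares near or below those of all genes. Over 9 lists of other chaperones and cochaperones, 60 of 64 genes were tested; Hspb9, Cryaa, Hsf5 and Cct6b were not. In KO 4 rose (6.67%, beside 13.2% of all genes) and 6 fell (10%, beside 12.7%), and in WT 10 rose (16.7%, beside 14.1%) and 5 fell (8.33%, beside 11.2%). The median log2 changes were 0.07 in KO and 0.01 in WT. These counts rested on single libraries. In KO they were 7 higher without KO Sham column 2, 2 lower without KO Sham column 3 or KO MTE 1 and 3 lower without KO MTE 2. In WT they were 4 to 6 higher without any of WT Sham 2 to 4 or WT MTE 1 or 4, 2 to 3 lower without any of WT Sham 2 to 4 or WT MTE 2 or 3, and 9 lower without WT Sham 1. The genes below are given for their own values.

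Among the 3 other small heat shock proteins tested, Hspb3, a muscle protein that assembles with HSPB2, rose in both genotypes. It had 25.6, 34.6, 27.3 and 31.4 CPM in KO MTE, 25.8, 18.1, 23.1 and 26.0 CPM in WT MTE, 14.2, 21.5 and 12.2 CPM in KO Sham, and 16.8, 11.6, 12.5 and 11.9 CPM in WT Sham. The MTE libraries lay above the Sham libraries in each genotype, with log2 changes of 0.89 in KO (adjusted p = 0.00802) and 0.81 in WT (adjusted p = 0.00644). Hspb6 (HSP20) was called in WT at log2 0.73 (adjusted p = 0.0288), a call lost without any of WT Sham 1 to 4 or WT MTE 1 or 4 (adjusted p up to 0.0962), without both WT Sham 1 and KO Sham column 3 (0.0504) and with only the WT groups in the fit (0.0545). It was not called in KO. Hspb2 was not called in either.

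Flnc, the gene of filamin C, the client that BAG3 and HSPB8 carry to autophagy, had the largest change of any gene in the 9 chaperone lists. It had 3092, 2349, 1379 and 2487 CPM in KO MTE, 3124, 889, 1563 and 2041 CPM in WT MTE, 591, 701 and 248 CPM in KO Sham, and 1069, 384, 472 and 300 CPM in WT Sham. As for Hspb1 and Cryab, the KO groups were separate, and WT MTE 2 lay below WT Sham 1. The log2 change was 2.18 in KO (SE 0.52, adjusted p = 0.00928) and 1.78 in WT (SE 0.46, adjusted p = 0.0119). The other 5 genes of that list (Synpo2, Stub1, Sqstm1, Vps16 and Vps18) were not called.

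Among the other BAG proteins and HSP70 exchange factors, Bag2 is an inhibitor of the ubiquitin ligase that Stub1 encodes. It was the only gene of the 9 chaperone lists called between genotypes. It had 39.7, 50.2, 28.0 and 47.2 CPM in KO MTE and 17.6, 17.5, 18.7 and 22.3 CPM in WT MTE. All 4 KO libraries lay above all 4 WT libraries, a difference of log2 1.12 (SE 0.18, adjusted p = 0.00542). In Sham it had 19.9, 25.6 and 18.1 CPM in KO and 9.76, 11.6, 12.7 and 12.2 CPM in WT, again with no overlap, and the difference did not pass (log2 0.88, SE 0.19, adjusted p = 0.0556). Overload raised it by log2 0.96 in KO (adjusted p = 0.00382) and 0.72 in WT (adjusted p = 0.00854). Bag2 kept its calls in these 3 comparisons under every alternative run. Bag4 was called lower in KO (log2 -0.50, adjusted p = 0.0421), a call lost under 13 of the alternatives, and Bag1, Bag5, Bag6 and Hspbp1 were not called.

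Of the 9 other HSP70 and HSP110 family members 1 rose in KO and 3 rose in WT. Hspa13, an HSP70-like protein of the endoplasmic reticulum, rose in WT (log2 0.65, adjusted p = 0.00137), with 32.1, 33.8, 29.4 and 33.3 CPM in WT MTE and 17.3, 20.8, 22.7 and 20.9 CPM in WT Sham. It was not called in KO. Hspa2 was called in KO at log2 0.84 (adjusted p = 0.0289) and in WT at log2 0.67 (adjusted p = 0.0484), and Hspa14 in WT at log2 0.45 (adjusted p = 0.0216). Several of these calls were lost under alternatives, up to an adjusted p of 0.122 for Hspa2 in KO, 0.160 for Hspa2 in WT and 0.0745 for Hspa14.

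The 8 other J-domain proteins moved both ways, with 1 lower in KO and 2 higher and 1 lower in WT. Dnaja2 fell in both genotypes, with 136, 130, 134 and 147 CPM in KO MTE, 144, 116, 124 and 144 CPM in WT MTE, 253, 203 and 297 CPM in KO Sham, and 157, 223, 235 and 219 CPM in WT Sham. The groups were separate in each genotype, at log2 -0.88 in KO (adjusted p = 0.00214) and -0.66 in WT (adjusted p = 0.00541). Dnaja4 and Dnaja1 were called higher in WT at log2 0.60 (adjusted p = 0.0351) and 0.44 (adjusted p = 0.0498), calls lost under 9 and 14 of the alternatives.

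Of the 12 genes of the HSP90 paralog and cochaperones none rose, 1 fell in KO and 3 fell in WT. Chordc1 fell in KO at log2 -0.63 (adjusted p = 0.0232) and in WT at -0.56 (adjusted p = 0.0267), and Unc45b, which helps myosin fold, fell in WT at -0.63 (adjusted p = 0.0325). Fkbp4 fell in WT at -0.45 (adjusted p = 0.0496). Each of these was lost when single libraries were left out, with an adjusted p of up to 0.154 for Chordc1 in KO, 0.0835 for Chordc1 in WT, 0.0934 for Unc45b and 0.137 for Fkbp4. The mitochondrial chaperones lay lower under overload, with a list median of log2 -0.56 in KO, where 3 of 4 fell, and -0.50 in WT, where 1 of 4 fell. These counts rested on the Sham libraries that stood apart. Without WT Sham 1, 3 of 4 fell in each genotype. Without KO Sham column 3, 1 fell in KO and 2 in WT, and without both libraries 2 fell in KO and 3 in WT. Trap1, a mitochondrial HSP90, fell in both, by log2 -0.46 in KO (adjusted p = 0.00991) and -0.57 in WT (adjusted p = 0.0015). Hspd1 (HSP60) and Hspa9 (mortalin) fell in KO, at -0.65 (adjusted p = 0.0224) and -0.70 (adjusted p = 0.0388), and without KO Sham column 3, the library with the highest share of mitochondrial counts, their adjusted p was 0.133 and 0.225. That library was not alone in this. With each library left out in turn, the KO call was lost 3 times for Hspd1 and 7 times for Hspa9. The share of mitochondrial counts was 7.09% to 9.01% in KO MTE, 6.21% to 8.97% in WT MTE, 11.3% to 20.5% in KO Sham and 6.95% to 14.4% in WT Sham. None of the 4 heat shock factor genes tested (Hsf1, Hsf2, Hsf4 and their binding partner Hsbp1) was called in either genotype, and of 8 cytosolic chaperonin subunits only Cct3 was, in WT at log2 0.48 (adjusted p = 0.0311), a call lost under 7 of the alternatives.

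**Figure D3:**
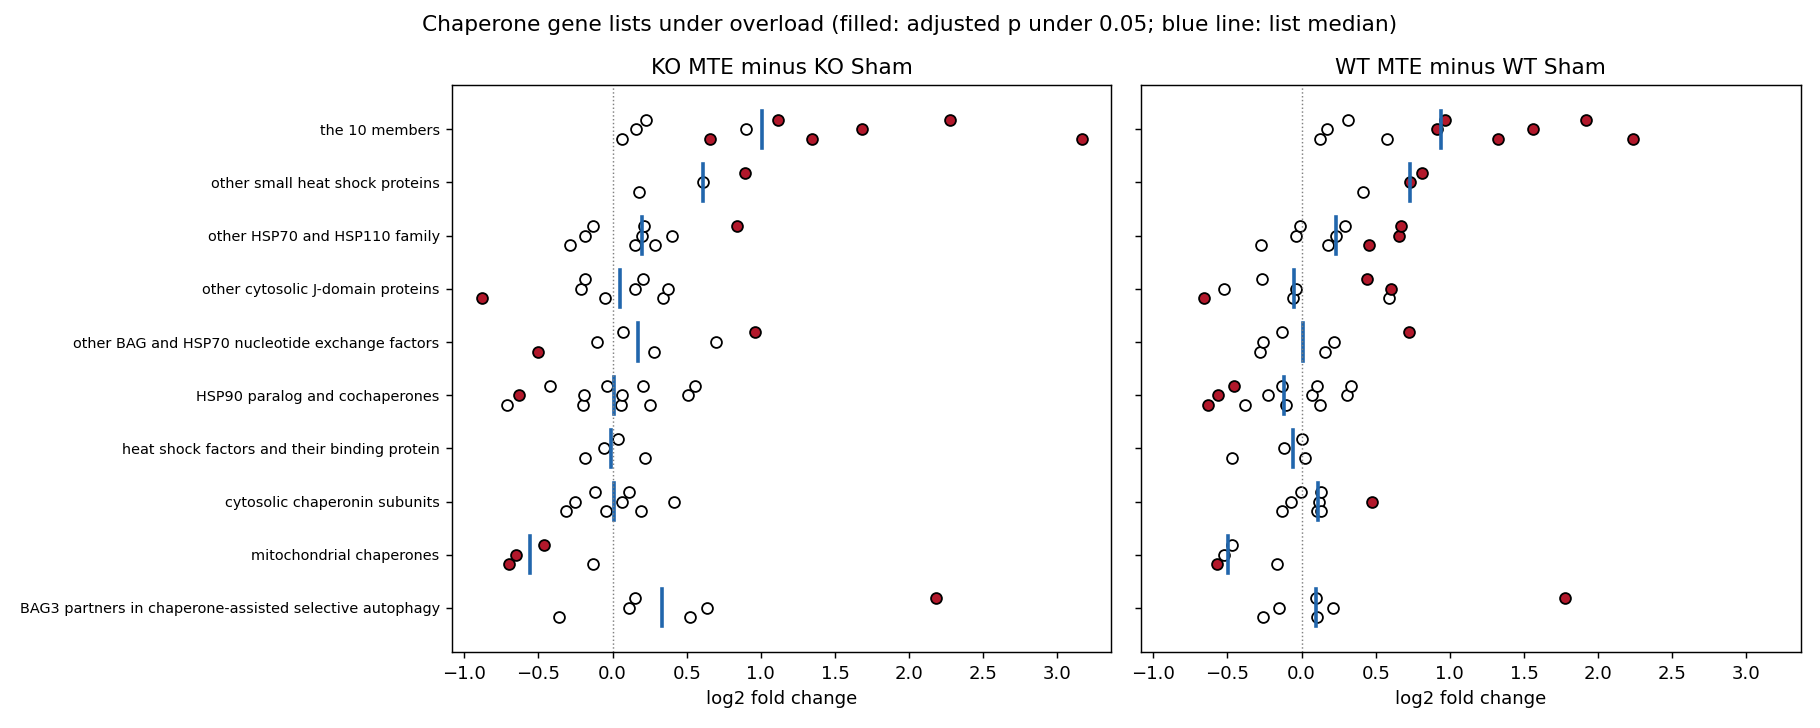
Log2 fold change of each gene under overload, by list, in KO (left) and WT (right). Each circle is a gene, filled where its adjusted p was under 0.05, and the blue line is the median of the list. The 10 genes described here stand to the right of 0 in both panels, and so do the other small heat shock proteins. The mitochondrial chaperones stand to the left of 0 in both, and the remaining lists lie on both sides of it.

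Within a group Hspb1, Cryab and Hspb7 varied most of the 10 genes. The within-group SD of log2 CPM was 0.84 for Hspb1, larger than that of 89.7% of all genes tested, 0.59 for Cryab and 0.58 for Hspb7. It was 0.51 for Hspa1a, 0.44 for Hspa1b, 0.41 for Hspb8, 0.31 for Hsp90aa1, 0.26 for Dnajb1, 0.25 for Bag3 and 0.23 for Hspa8, beside a median of 0.36 over all genes. WT Sham 1 was the highest WT Sham library for 8 of the 10 genes, KO MTE 4 the highest KO MTE library for 7, and KO MTE 3 the lowest KO MTE library for 8. KO Sham column 3 was split: it was the lowest KO Sham library for the 4 small heat shock proteins Hspb1, Hspb7, Hspb8 and Cryab and the highest for the other 6 genes. The ratio of Cryab to Hspb1 CPM, read only across libraries, was 2.76 to 3.96 in KO MTE, 2.93 to 6.33 in WT MTE, 11.2 to 13.4 in KO Sham and 6.09 to 10.8 in WT Sham.

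The genes whose profiles over the 15 libraries were nearest to that of Hspb1, by the mean absolute difference of log2 CPM centred on each gene's own mean, were Ankrd2 (0.26), Gm13889 (0.30), Tnfrsf12a (0.31), Dusp5 (0.33) and Xirp1 (0.33). For scale, the mean absolute deviation of Hspb1 itself was 1.41. Ankrd2, a stretch-responsive ankyrin repeat protein of muscle, averaged 329 CPM in KO MTE, 344 in WT MTE, 47.3 in KO Sham and 68.3 in WT Sham. Xirp1, an actin-binding protein of the muscle-tendon and intercalated disc junctions, averaged 913 CPM in KO MTE, 627 in WT MTE, 197 in KO Sham and 160.1 in WT Sham. Tnfrsf12a encodes the TWEAK receptor, and Dusp5 a phosphatase of the ERK kinases. Nearest to the summed Hspa1a and Hspa1b were Adamtsl5, Pdlim1, Kremen1, Micall1 and Ppa1, at 0.25 to 0.26 beside a deviation of 0.52 for the sum itself. The sum was logged after adding 1 CPM, and the genes with a prior count of 1, so the profile of the sum is flattened beside theirs. These distances are therefore not on the scale of those to Hspb1. All of these profiles share the 15 libraries and their overload contrast, and no p is given.

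**Figure D4:**
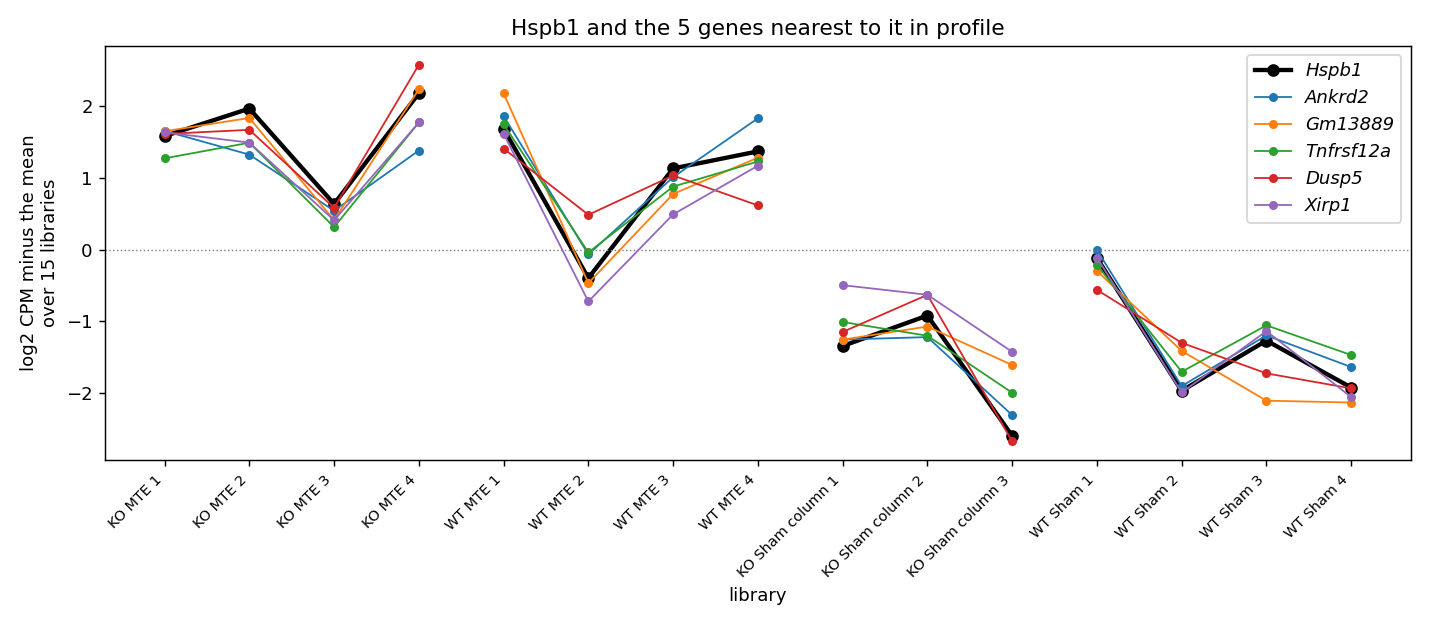
Profiles of Hspb1 (black) and the 5 genes nearest to it over the 15 libraries. The y axis gives log2 CPM minus the gene's mean over the libraries. All 6 genes are above 0 in KO MTE and at or below 0 in both Sham groups, and Hspb1 in WT MTE 2 (-0.40) is below its value in WT Sham 1 (-0.12).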

How the data were processed

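The 10 genes, the gene lists and the tests were chosen with earlier results of these data known, so no list or direction here is independent support for another. The values are estimated counts per Ensembl gene that the authors deposited, called raw reads in the file headers. Within 0.01, 90.9% of them were whole. STAR, RSEM, edgeR and the build GRCm38 are named, per the submitters' processing notes, with no version or role. The strand setting of the counting, and the filter that left 17230 genes, are not stated in the sources used here. Per the labels' protocols, ribosomal RNA was depleted and libraries were made with a stranded kit.

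Here the estimated counts were rounded to whole numbers, filtered with filterByExpr by group (17212 genes left), scaled by TMM and fitted as 4 group means over all 15 libraries with edgeR's robust quasi-likelihood model (edgeR 4.0.16, R 4.3.3), with 5 comparisons and Benjamini-Hochberg adjustment over all genes tested in each. Standard errors (SE) and 95% intervals are of the log2 fold change. Beside it, log2 CPM of the 10 genes was compared by exact permutation (two-sided), for which the smallest possible p is 0.0286. CPM use a prior count of 1 where logged, except for the profile of the summed Hspa1a and Hspa1b, to which 1 CPM was added. DESeq2 1.42.0 and limma 3.58.1 (voom) were alternatives, as were RLE size factors, other filters, fits of only the groups compared, the replicate number as a block, and leaving out each library or a pair of them. The design had 16 samples in view, and 15 columns were found. The steps were tested on simulated counts. Libraries of a group were compared before averaging and none was a copy of another (chi-square per gene of at least 38.3). Totals of 21.1 to 69.2 M counts per library limit the precision mainly for Hspa1a and Hspa1b. Positions and exon lengths are from GENCODE M21 on GRCm38. Genes outside the 10 were named by rule: up to 3 called genes with the smallest p in each list (all genes of lists of up to 5), and the 5 nearest profiles; Hspa14, Dnaja1, Bag4 and Fkbp4 complete their lists' calls.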

Additional observations from a re-analysis of the deposited data

How the results depend on the processing

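Over all alternatives no call reversed. The number of the 10 genes called higher under overload, 6 in each genotype, was 5 to 6 in KO and 6 to 7 in WT under the other tests, scalings, filters and sample choices, and with each library left out in turn it was 3 to 7 in KO and 4 to 6 in WT. It was 3 in KO without KO Sham column 1 or KO MTE 4, and 4 without KO Sham column 2, KO MTE 1 or KO MTE 2; Hspb1, Hspb7 and Hspb8 were called in KO, and Hspb1, Hspb7, Hspa1b and Hsp90aa1 in WT, under every alternative. For KO against WT in either surgery and for the interaction the number was 0 throughout. Counts over all genes moved more. For WT overload, 2435 higher and 1920 lower became 1742 to 3674 and 1246 to 3021 with single libraries left out, and up to 4164 and 3492 without both WT Sham 1 and KO Sham column 3. For KO overload, 2274 and 2180 became 1278 to 3136 and 953 to 2718. For KO against WT in MTE, 209 and 44 became 82 to 327 and 6 to 85, and 180 to 553 and 39 to 280 under the other alternatives. In Sham, 57 and 31 became 27 to 51 and 9 to 52, and 4 to 152 and 2 to 134. For the interaction, 0 became at most 10 higher and 1 lower.

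Whether replicate numbers pair the libraries could not be settled. Over 12 pairs of same-numbered libraries the correlation of deviations ran from -0.10 to 0.44, and 8 were over 0.1. The highest, 0.44, was that of WT MTE 1 with KO MTE 1. Pairs with different numbers ran from -0.48 to 0.38, and 5 of 12 libraries correlated best with their own number. With the number as a replicate block on the 12 numbered libraries, 6 of the 10 genes were called higher in WT overload and 0 in KO against WT in MTE, as without the block on the same libraries, a fit added after seeing the data. Among the other listed genes, the WT overload calls of Hspb6 and Dnaja4 had an adjusted p of 0.0543 and 0.0512 with the block. No paired analysis was possible for comparisons with KO Sham, because its columns could not be matched to the labelled numbers. Depth limits precision most for Hspa1a and Hspa1b, which have the fewest counts of the 10 genes.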
